A study of Mus musculus with 60 samples.

Results

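The comparison concerned the 10 fetal brain arrays that an inferred sample order assigns to wild-type (WT) mice at 0.75 or 0 mg/kg/d of chlorpyrifos oxon (CPO), 5 arrays each of 60 in all. The series profiled fetal brain on Affymetrix Mouse Gene 1.0 ST arrays after pregnant mice had been exposed to CPO over gestational days 6 to 17, and brains were taken on day 18. Each array holds the pooled fetal brain RNA of 1 litter, so the dam is the replicate and a pool can hold both sexes. The labels describe 12 groups of 5 dams, all on a B6.129 strain background. They are Pon1 knockout (KO) at 0, 0.5 and 0.75 mg/kg/d, and WT, mice with the human PON1 transgene tgHuPON1Q192 (Q-tg) and mice with tgHuPON1R192 (R-tg), each at dose 0 and at 0.75 or 0.85 mg/kg/d. Dams with outlying brain acetylcholinesterase activity for their treatment were removed before dams were drawn at random, per the series description. The promoter of the transgenes and the Pon1 alleles of the transgenic mice are not given in the sources used here.

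CPO is the active metabolite of the insecticide chlorpyrifos and binds the active serine of acetylcholinesterase, the enzyme that ends acetylcholine signalling at synapses. Other serine hydrolases can be bound in the same way. Paraoxonase 1 (PON1), a liver enzyme carried in blood on high-density lipoprotein, hydrolyses CPO before it reaches the brain, and a WT mouse keeps its own PON1.

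Groups were selected by an order that is inferred and differs from the labels as deposited. Samples were numbered 1 to 60 by group label in text order and then by replicate, these numbers were sorted as text with the character _ appended, and the sorted labels were given in turn to the value columns. The rule was proposed because Pon1 did not follow the deposited labels, so Pon1 levels are a description and no test. Under the inferred order all 15 arrays with a Pon1 level below 7 on the log2 scale were reassigned KO arrays, at 4.84 to 5.67, and the other 45 arrays lay at 9.72 to 10.14. Under the deposited labels 10 of the 15 were labelled KO. Only 13 of the 60 arrays keep their deposited group, and of the 10 arrays compared here only replicate 5 at 0.75 does.

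**Figure D1:**
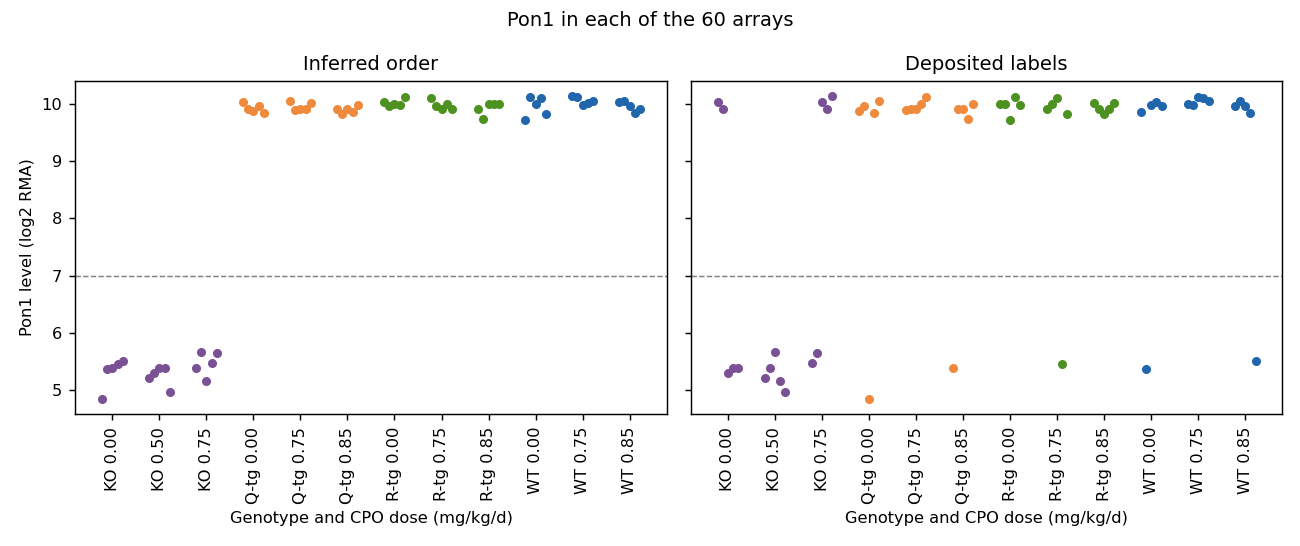
Pon1 level (log2 RMA signal, vertical axis) in each of the 60 arrays by genotype and CPO dose in mg/kg/d (horizontal axis), under the inferred order (left) and the deposited labels (right). Each point is 1 array and the dashed line is at 7. On the left the 15 low arrays, at 4.84 to 5.67, all stand under KO.

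The arrays reassigned to WT at 0.75 mg/kg/d were deposited as KO 0.75 replicate 1, Q-tg 0.75 replicate 2, R-tg 0 replicate 3, R-tg 0.85 replicate 4 and WT 0.75 replicate 5. Those reassigned to WT at dose 0 were deposited as R-tg 0 replicates 4 and 5 and R-tg 0.75 replicates 1, 2 and 4. Differences between genotypes, all doses averaged, were counted with limma (a moderated linear model, adjusted p under 0.05) over 21789 transcript clusters. The counts were 100 (0.459%) between reassigned Q-tg and WT, 70 (0.321%) between reassigned R-tg and WT, and 1335 (6.13%) between reassigned R-tg and Q-tg, against 0 in each case as deposited. Reassigned KO holds the arrays with low Pon1, the gene that led to the rule, so its counts lend the order no support. They were 2954 (13.6%) against WT, 1650 (7.57%) against Q-tg and 1328 (6.09%) against R-tg, and 1, 0 and 0 as deposited. No measured value checks the dose labels. Human PON1 transgenes can be carried on a Pon1 knockout background, and the 30 reassigned Q-tg and R-tg arrays had a mouse Pon1 signal within 9.72 to 10.14, as WT did, so which name belongs to which block of high arrays cannot be told apart by Pon1. The arrays are therefore called reassigned WT.

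The 10 arrays read as brain. Stmn2, a neuronal microtubule regulator, lay at 12.86 to 12.94 in reassigned WT at 0.75 mg/kg/d and 12.85 to 12.88 at dose 0. Fabp7, a radial glia marker, lay at 13.28 to 13.37 at 0.75 and 13.23 to 13.38 at dose 0. Any pair of the 10 arrays correlated between 0.9908 and 0.9976 over 21789 transcript clusters, and no array was identical to another. The lower quartile of an array's signal was 6.23 to 6.41 at 0.75 and 6.27 to 6.50 at dose 0, where replicates 1 (6.50) and 5 (6.49) had the highest values. Xist and Y-linked genes differed between pools of the same dose, for example Eif2s3y at 4.59 to 9.32 at 0.75 and 3.94 to 9.35 at dose 0.

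No transcript cluster passed between reassigned WT at 0.75 and at 0 mg/kg/d. limma called 0 of 21789 transcript clusters (0%) with exactly 1 gene symbol, and the smallest adjusted p was 0.177. At an unadjusted p under 0.05 there were 2027 (9.3%), of which 1094 (5.02%) had the higher mean at 0.75 and 933 (4.28%) the lower. The 5 arrays at 0.75 did not overlap the 5 at dose 0 for 295 transcript clusters (1.35%), 216 (0.991%) higher and 79 (0.363%) lower at 0.75. On simulated data of this design the test recovered 58% of 50 genes changed by 0.25 log2 units and 92% of 50 changed by 0.5. The same run held 50 genes changed by 1 and 50 by 2 log2 units, which eases the adjusted threshold. Its noise was independent between genes. These shares therefore do not give the power of the real comparison. The median standard error of a difference was 0.06 log2 units, and 6 transcript clusters had a mean difference above 0.5 in size. The count at unadjusted p under 0.05 was 1083 without dose 0 replicate 1, 1115 without dose 0 replicate 5, 1193 without 0.75 replicate 1 and 3459 without dose 0 replicate 2, with 0 passing after adjustment in each.

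The direction of the differences went with signal level. A transcript cluster is called dim here where its mean over the 60 arrays was below 6.54, the level that 95% of the 1035 olfactory receptor transcript clusters, genes not expected in brain, stay under. Of 15611 transcript clusters above that level, 1056 at unadjusted p under 0.05 had the higher mean at 0.75 and 411 the lower, with a median difference of 0.013 over all of them. Of 6178 dim ones, 38 had the higher mean and 522 the lower, with a median of -0.073. Among transcript clusters with a mean of 9 to 10, 68.0% had the higher mean at 0.75, and among those from 6 to 7, 24.5% did. A further fit took the lower quartile of each array as a covariate, and some list medians from it are given below. The part that the arrays' signal distribution has in any single difference below was not tested, and the lower quartiles overlapped between doses.

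**Figure D2:**
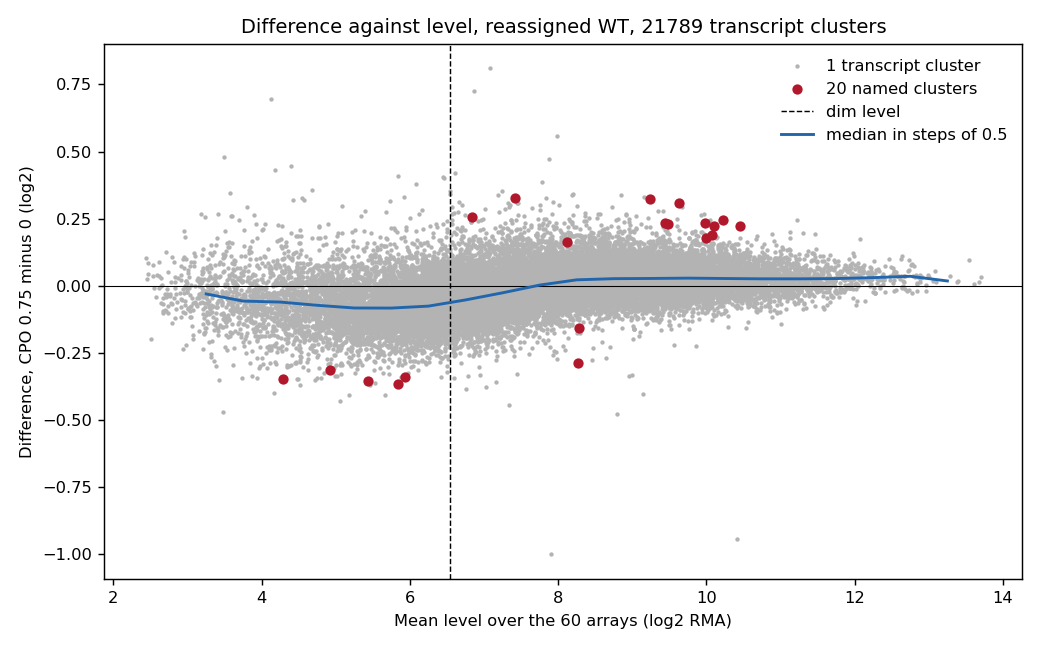
Difference of the means between CPO 0.75 and 0 mg/kg/d in reassigned WT (log2, vertical axis) against the mean level over the 60 arrays (log2 RMA, horizontal axis). Grey points are the 21789 transcript clusters, red points the 20 with the smallest p once 3 small RNA and predicted genes are left out, the blue line the median in steps of 0.5 and the dashed line the dim level of 6.54. The median lies below 0 among dim transcript clusters and slightly above 0 among brighter ones.

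The paraoxonases and the 2 cholinesterases did not pass. Pon1 is the enzyme that hydrolyses CPO, and its level at 0.75 mg/kg/d was 10.14, 10.13, 9.99, 10.02 and 10.05, against 9.72, 10.12, 10.01, 10.11 and 9.83 at dose 0. These levels overlapped. Pon2, a membrane-bound paralogue, had 7.80, 7.62, 7.52, 7.57 and 7.55 at 0.75, against 7.57, 7.53, 7.64, 7.43 and 7.34 at dose 0, a difference of 0.11 (SE 0.07, limma adjusted p = 0.562). Pon3, which like PON1 circulates on lipoprotein, differed by 0.07 (SE 0.07, adjusted p = 0.720).

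Ache encodes acetylcholinesterase, the main target of CPO in brain. Its level was 9.13, 8.97, 8.97, 8.89 and 8.90 at 0.75 mg/kg/d, against 8.89, 8.89, 8.94, 8.89 and 8.76 at dose 0. Replicate 1 was highest at 0.75 and replicate 5 lowest at dose 0, and the groups overlapped, with a mean difference of 0.10 (SE 0.06, limma adjusted p = 0.596). Bche, the related butyrylcholinesterase, lay at 6.68 to 6.82 at 0.75 and 6.61 to 6.83 at dose 0 and differed by 0.07 (SE 0.08, adjusted p = 0.752). Transcript levels carry no information on enzyme activity.

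Genes of the cholinergic synapse had small differences. Of 6 measured cholinesterase and anchor genes, 8 cholinergic neuron genes and 5 muscarinic receptors, 0 reached an unadjusted limma p under 0.05, where 4.84% of 19938 genes did with the higher mean at 0.75 and 4.37% with the lower. Each gene counts once here, through its brightest transcript cluster, and limma adjusted p was 0.177 or above for every gene. Their medians were 0.058, 0.025 and 0.015, beside -0.008 over all genes and 0.011 over genes above the dim level. Chat, the acetylcholine-synthesising enzyme, was dim and differed by -0.16 (SE 0.09), and Slc18a3, the vesicular acetylcholine transporter, by 0.15 (SE 0.09). Prima1, the anchor that holds acetylcholinesterase on neuronal membranes, differed by -0.17 (SE 0.09), and Chrm2, the M2 muscarinic receptor, by 0.11 (SE 0.06).

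Of 16 nicotinic receptor subunits, 8 of them dim, 7 had the higher mean at 0.75 and 9 the lower, with a median of -0.018. At unadjusted limma p under 0.05 there was 1 with the higher mean and 1 with the lower, beside 4.84% and 4.37% of all genes. Among dim genes the shares were 0.556% and 8.59%. Chrna3, the ganglionic alpha subunit, had 9.03, 8.97, 9.08, 8.92 and 8.92 at 0.75 mg/kg/d, against 8.94, 8.98, 8.84, 8.77 and 8.74 at dose 0. Replicates 1 and 2 at dose 0 lay within the range at 0.75, and the difference was 0.13 (SE 0.05, limma adjusted p = 0.462). Chrnb1, the muscle beta subunit, was dim, with 6.18 to 6.30 at 0.75 and 6.21 to 6.62 at dose 0, a difference of -0.15 (SE 0.07, adjusted p = 0.516). Chrng and Chrnd, also muscle subunits, differed by -0.18 (SE 0.10) and -0.15 (SE 0.11).

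Among 21 serine hydrolases that organophosphates bind, of which 6 are dim, 3 had the higher mean at unadjusted p under 0.05 and 0 the lower. Over all genes the shares were 4.84% and 4.37%, and above the dim level 6.58% and 2.66%. The median of the list was -0.010. Lypla1, an acyl-protein thioesterase that removes palmitate from proteins, had 9.19, 9.18, 8.95, 8.99 and 8.99 at 0.75, against 8.65, 8.90, 8.92, 8.92 and 8.78 at dose 0. The 5 arrays at 0.75 lay above all 5 at dose 0, and the difference was 0.23 (SE 0.06, limma adjusted p = 0.381). Lypla2, its paralogue, differed by 0.11 (SE 0.05, adjusted p = 0.509) and Abhd6, a monoacylglycerol lipase, by 0.11 (SE 0.05, adjusted p = 0.518). The carboxylesterases Ces1f and Ces1d were dim and differed by -0.18 (SE 0.10) and -0.16 (SE 0.10).

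The 20 transcript clusters with the smallest p, after 3 small RNA and predicted genes gave way, name 17 genes, and they are given as values because none passed. Of the 20, 13 had the higher mean at 0.75 mg/kg/d, all above the dim level, and 7 the lower, of which 5 were dim. Mean differences were 0.16 to 0.37 log2 units in size, adjusted p ran between 0.177 and 0.381, and in 14 of 20 the 2 doses did not overlap. They were picked for small p, so that count is a description.

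Idi1, isopentenyl-diphosphate isomerase of the cholesterol pathway, had 9.86, 9.75, 9.68, 9.62 and 9.66 at 0.75 mg/kg/d, against 9.27, 9.38, 9.47, 9.51 and 9.40 at dose 0. All 5 arrays at 0.75 lay above all 5 at dose 0, with a difference of 0.31 (SE 0.07, limma adjusted p = 0.177). A further transcript cluster of Idi1 differed by 0.24 (SE 0.06, adjusted p = 0.381). Over the 45 arrays of the other reassigned genotypes the first ran between 9.30 and 9.84, with a median of 9.65, so the dose 0 arrays of reassigned WT lay below that median.

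Kpna2, an importin that carries proteins into the nucleus of dividing cells, appeared with 3 transcript clusters that may share near-identical sequence. The brightest had 10.37, 10.26, 10.26, 10.33 and 10.39 at 0.75, against 9.92, 10.22, 10.09, 10.12 and 10.03 at dose 0. The doses did not overlap, and the differences of the 3 were 0.25 (SE 0.06, adjusted p = 0.282), 0.23 (SE 0.06) and 0.22 (SE 0.06). Over the 45 arrays of the other reassigned genotypes the brightest had a median of 10.23, beside means of 10.32 at 0.75 and 10.08 at dose 0. H4c6, a replication-dependent histone H4 gene whose near-identical copies the array may not separate, had 9.33, 9.30, 9.26, 9.43 and 9.28 at 0.75, against 8.65, 9.21, 9.06, 9.16 and 8.91 at dose 0, a difference of 0.32 (SE 0.08, adjusted p = 0.381). Its median over the same 45 arrays was 9.26, beside means of 9.32 at 0.75 and 9.0 at dose 0.

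Of the others with the higher mean at 0.75, Psmd6, a lid subunit of the 26S proteasome, had 10.10, 10.21, 10.11, 10.22 and 10.13 at 0.75, against 9.94, 9.95, 9.92, 10.03 and 9.98 at dose 0. The doses did not overlap and the difference was 0.19 (SE 0.05, adjusted p = 0.282). Spcs2, a subunit of the signal peptidase complex, differed by 0.22 (SE 0.05, adjusted p = 0.301), and Atp6v1c1, a subunit of the vacuolar proton pump, by 0.18 (SE 0.04, adjusted p = 0.321), both without overlap. Trim36, a ubiquitin ligase, differed by 0.33 (SE 0.08, adjusted p = 0.381), and dose 0 replicate 2 (7.54) lay within the range of 7.48 to 7.66 at 0.75. Mob1a, a Hippo pathway adaptor, differed by 0.16 (SE 0.04), Ccdc127, a coiled-coil protein gene, by 0.23 (SE 0.06), and Mlf1, a myeloid leukemia factor, by 0.26 (SE 0.07), each with adjusted p = 0.381. Over the 45 arrays of the other genotypes the median of Spcs2 was 10.48, beside means of 10.53 at 0.75 and 10.31 at dose 0. That of Mlf1 was 6.86, beside 6.88 and 6.62, and that of Trim36 was 7.39, beside 7.56 and 7.23.

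Of the 7 with the lower mean at 0.75, Tkfc and Zc3h6 were above the dim level. Tkfc, which phosphorylates dihydroxyacetone and glyceraldehyde, had 8.17, 8.17, 8.21, 8.19 and 8.24 at 0.75, against 8.42, 8.28, 8.42, 8.32 and 8.32 at dose 0. The doses did not overlap, at a difference of -0.16 (SE 0.03, adjusted p = 0.196). Zc3h6, a zinc finger protein gene, had 8.07, 8.25, 8.06, 7.82 and 7.90 at 0.75, against 8.33, 8.38, 8.26, 8.33 and 8.24 at dose 0, a difference of -0.29 (SE 0.07, adjusted p = 0.317) with replicate 2 at 0.75 inside the range at dose 0. The dim ones were Serpinb13 at -0.31 (SE 0.07, adjusted p = 0.177), the olfactory receptor genes Olfr124 at -0.36 (SE 0.08, adjusted p = 0.177), Olfr689 at -0.37 (SE 0.10) and Olfr1442 at -0.35 (SE 0.09), and the sperm gene Smcp at -0.34 (SE 0.09). Olfr124 lay at 5.34 to 5.51 at 0.75 and 5.59 to 5.96 at dose 0, and the 45 arrays of the other genotypes lay at 5.21 to 5.66. Zc3h6 had a median of 8.29 in those 45 arrays, beside means of 8.02 at 0.75 and 8.31 at dose 0. Serpinb13 had 4.94 there, beside 4.73 at 0.75 and 5.04 at dose 0.

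**Figure D3:**
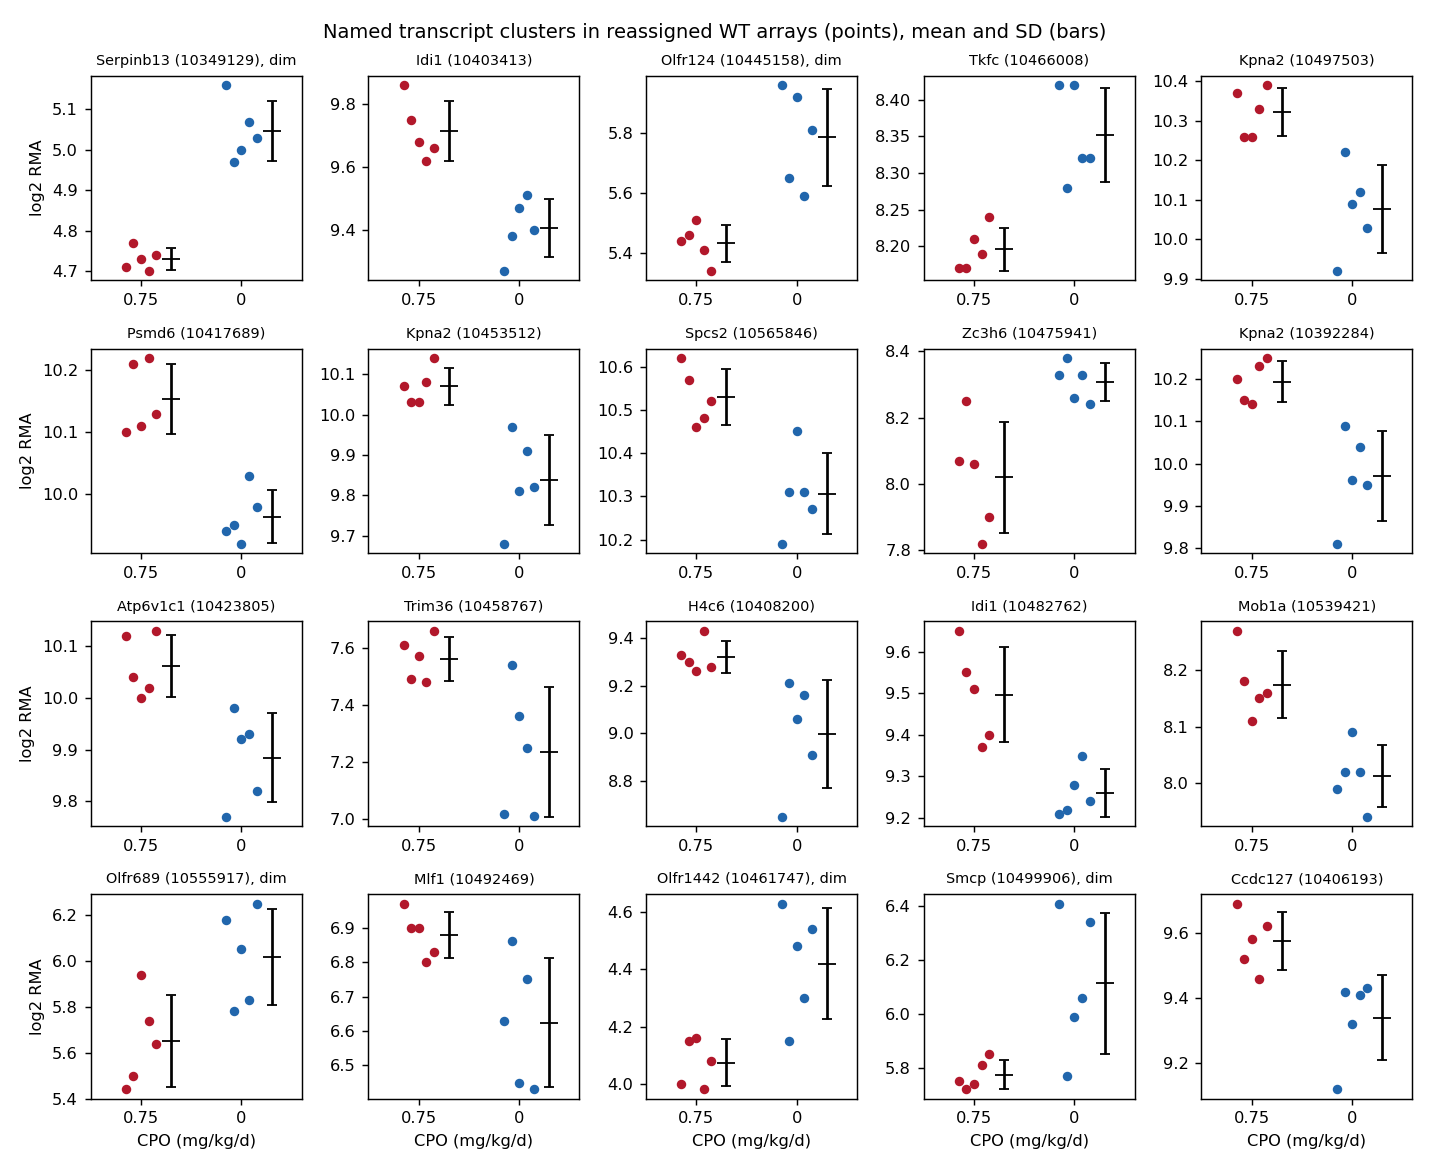
Level (log2 RMA, vertical axes, which do not start at 0) of the 20 transcript clusters with the smallest p, 3 small RNA and predicted genes left out, in reassigned WT at CPO 0.75 (red) and 0 mg/kg/d (blue). Points are single arrays and black bars the mean with its SD (n = 5 each). In 14 of 20 panels the red and blue points do not overlap, and 5 panels are marked dim.

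Mir9-1 and Mir652 also had small p but fall under the rule that small RNA genes give way, and they were chosen after their values were seen. Mir9-1 is a precursor of miR-9, a microRNA abundant in neural progenitors. It had 8.92, 8.88, 8.73, 8.79 and 8.89 at 0.75, against 9.20, 9.26, 9.31, 9.07 and 9.03 at dose 0. The doses did not overlap, and the difference was -0.33 (SE 0.07, limma adjusted p = 0.196), while at 0.75 it was 0.00 in reassigned KO, -0.21 in Q-tg and -0.13 in R-tg, and at 0.85 in reassigned WT it was -0.13. Mir652 was dim and differed by -0.28 (SE 0.07, adjusted p = 0.282). An array of this kind reads the precursor or host transcript and not the mature microRNA alone. The mature sequences of Mir9-1, shown to name its 2 products, are from RefSeq (GRCm38.p6), with the seed of bases 2 to 8 in capitals.
miR-9-5p: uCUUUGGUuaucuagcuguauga
miR-9-3p: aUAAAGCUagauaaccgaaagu

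Genes of cholesterol synthesis mostly had the higher mean at 0.75 mg/kg/d, by small amounts. Developing brain makes its own cholesterol, and these genes share the transcription factor SREBP2. Of 18 measured genes, 15 had the higher mean and 3 the lower, beside 46.1% higher over all genes and 56.1% over genes above the dim level. At unadjusted p under 0.05 there were 6 with the higher mean and 0 with the lower, beside 6.58% and 2.66% of genes above the dim level. The median was 0.035, or 0.011 without 0.75 replicate 1 and 0.073 without 0.75 replicate 4. It was 0.024 with the lower quartile of each array as a covariate. The summed level of the list overlapped, at 9.69 to 9.88 as a mean per array at 0.75 and 9.72 to 9.81 at dose 0.

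After Idi1 the member with the largest difference was Sc5d. This gene, which encodes sterol C5 desaturase, had 9.94, 9.85, 9.84, 9.70 and 9.94 at 0.75, against 9.60, 9.74, 9.76, 9.74 and 9.70 at dose 0, with replicate 4 at 0.75 inside the range at dose 0 and a difference of 0.15 (SE 0.05, limma adjusted p = 0.417). Msmo1, methylsterol monooxygenase, differed by 0.14 (SE 0.05, adjusted p = 0.478) and Sqle, squalene epoxidase, by 0.10 (SE 0.04, adjusted p = 0.490). Fdft1, squalene synthase, lay at 11.72 to 11.84 at 0.75 and 11.64 to 11.70 at dose 0, without overlap, and differed by 0.09 (SE 0.04, adjusted p = 0.501). Cyp51, lanosterol demethylase, differed by 0.10 (SE 0.05, adjusted p = 0.523).

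RefSeq promoter windows (GRCm38.p6, the 250 bases before a gene's start) were found for 14 of the genes listed. CCAAT, the NF-Y box, read on both strands as CCAAT or ATTGG, was in a window of all 14, beside 37.5% of 27025 genes. TCACNCCAC, a form of the sterol response element read on both strands, was in 1 of the 14 and in 331 of the 27025. A match is a description of the letters and not a site. The windows of 4 genes with unadjusted p under 0.05 are shown 5′ to 3′ on the gene's strand, with each CCAAT or ATTGG in capitals.
Idi1, chr13:8885356-8885605, plus strand: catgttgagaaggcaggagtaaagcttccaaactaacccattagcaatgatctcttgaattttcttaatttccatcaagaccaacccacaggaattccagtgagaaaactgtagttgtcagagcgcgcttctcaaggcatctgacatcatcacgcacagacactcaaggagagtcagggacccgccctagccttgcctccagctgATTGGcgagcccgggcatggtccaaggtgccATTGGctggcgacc
Sc5d, chr9:42264301-42264550, minus strand: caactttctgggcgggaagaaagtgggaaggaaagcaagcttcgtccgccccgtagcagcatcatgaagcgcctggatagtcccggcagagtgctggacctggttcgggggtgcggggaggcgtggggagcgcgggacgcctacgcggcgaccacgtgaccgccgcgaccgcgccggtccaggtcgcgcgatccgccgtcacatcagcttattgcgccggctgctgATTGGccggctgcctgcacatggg
Msmo1, chr8:64733579-64733828, minus strand: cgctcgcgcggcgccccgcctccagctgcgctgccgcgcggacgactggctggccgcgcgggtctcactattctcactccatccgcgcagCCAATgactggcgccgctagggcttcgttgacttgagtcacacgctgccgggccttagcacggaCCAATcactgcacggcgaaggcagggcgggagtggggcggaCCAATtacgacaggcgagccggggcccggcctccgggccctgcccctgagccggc
Cyp51, chr5:4104698-4104947, minus strand: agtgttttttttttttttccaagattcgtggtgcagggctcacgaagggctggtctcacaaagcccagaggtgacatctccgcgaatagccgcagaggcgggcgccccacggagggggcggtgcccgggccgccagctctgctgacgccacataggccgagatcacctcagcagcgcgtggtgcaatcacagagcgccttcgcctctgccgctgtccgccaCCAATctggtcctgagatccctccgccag
The Idi1 window holds 2 boxes, that of Msmo1 holds 3, and those of Sc5d and Cyp51 hold 1 each.

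Respiratory chain subunit genes, which build the complexes of mitochondrial oxidative phosphorylation, mostly had the higher mean at 0.75. Of 33 measured, 30 had the higher mean at 0.75 mg/kg/d and 3 the lower, 7 with the higher mean and 0 with the lower were at unadjusted p under 0.05, and the median was 0.056. With the lower quartile of each array as a covariate the median was 0.038. The mean level of the list per array was 10.35 to 10.43 at 0.75 and 10.29 to 10.35 at dose 0. Ndufa4, a subunit of the chain, had 9.93, 9.91, 9.96, 9.81 and 9.81 at 0.75, against 9.79, 9.73, 9.73, 9.79 and 9.60 at dose 0, without overlap and at a difference of 0.16 (SE 0.06, limma adjusted p = 0.478). Uqcrfs1, the Rieske protein of complex III, differed by 0.16 (SE 0.06, adjusted p = 0.462), Atp5h, an ATP synthase subunit, by 0.13 (SE 0.05, adjusted p = 0.432), and Ndufb3, of complex I, by 0.14 (SE 0.09). These genes are bright, and of all transcript clusters with a mean of 10 or above 70.7% had the higher mean at 0.75, with a median difference of 0.027. Of those 2293 transcript clusters, 265 were at unadjusted p under 0.05 with the higher mean and 25 with the lower. Among all genes above the dim level the shares were 6.58% and 2.66%.

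Stress response genes also mostly had the higher mean at 0.75. Of 24 genes of the integrated and unfolded protein stress response, 20 had the higher mean at 0.75, 5 of them at unadjusted p under 0.05 and 0 in the other direction, with a median of 0.044. None is dim, and of all 14184 genes above the dim level 56.1% had the higher mean, 6.58% were at unadjusted p under 0.05 with the higher mean and 2.66% with the lower. Ddit4, a stress-induced mTOR inhibitor, had 8.91, 8.79, 9.05, 8.79 and 9.13 at 0.75, against 8.55, 8.65, 8.86, 8.62 and 8.80 at dose 0, with overlap, and differed by 0.24 (SE 0.08, limma adjusted p = 0.408). Xbp1, a transcription factor of the unfolded protein response, had 10.06 to 10.15 at 0.75 and 9.81 to 10.05 at dose 0 and differed by 0.15 (SE 0.06, adjusted p = 0.462). Creld2 and Pdia4, endoplasmic reticulum chaperones or disulfide isomerases, differed by 0.20 (SE 0.07) and 0.16 (SE 0.06), and Hspa5, the main chaperone there, by 0.14 (SE 0.06).

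Of 15 cytosolic heat shock genes, 13 had the higher mean at 0.75, 2 of them at unadjusted p under 0.05, with a median of 0.039, or 0.042 to 0.060 with 1 array left out (0.060 without 0.75 replicate 3). These genes are above the dim level, where 56.1% of genes had the higher mean and 6.58% were at unadjusted p under 0.05 with it. Hspa8, the constitutive Hsc70, differed by 0.07 (SE 0.03, limma adjusted p = 0.503) and Hsph1, an Hsp110 co-chaperone, by 0.10 (SE 0.05). Of 22 NRF2 genes, 16 had the higher mean and 2 reached unadjusted p under 0.05, which were Nfe2l2, the gene of NRF2 itself, at 0.17 (SE 0.06, adjusted p = 0.458) and Nqo1, a dim quinone reductase, at 0.18 (SE 0.08, adjusted p = 0.503). Of 25 xenobiotic metabolism genes, 9 of them dim, 11 had the higher mean and 14 the lower, with a median of -0.022. At unadjusted p under 0.05, 4 were higher and 2 lower, beside 4.84% and 4.37% of all genes. Among dim genes the shares were 0.556% and 8.59%. The glutathione transferase Gsta4 differed by 0.22 (SE 0.07, limma adjusted p = 0.381) without overlap, and the dim cytochrome Cyp2e1 by -0.26 (SE 0.10, adjusted p = 0.472). Of 20 immediate early genes, which follow neuronal activity, 0 reached unadjusted p under 0.05 by limma, and their median was -0.017.

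Hypoxia response genes had the higher mean at 0.75 in 16 of 19, with 5 at unadjusted p under 0.05, 0 in the other direction and a median of 0.064, or 0.042 without dose 0 replicate 4. Above the dim level 56.1% of genes had the higher mean and 6.58% were at unadjusted p under 0.05 with it. Kdm3a, a histone demethylase induced by hypoxia-inducible factor, had 9.06, 8.77, 8.91, 9.05 and 9.14 at 0.75, against 8.59, 8.79, 8.86, 8.77 and 8.60 at dose 0. Replicate 2 at 0.75 lay inside the range at dose 0, and the difference was 0.26 (SE 0.08, limma adjusted p = 0.408). P4ha1, a collagen prolyl hydroxylase, differed by 0.22 (SE 0.08, adjusted p = 0.448), Higd1a, a mitochondrial protein of the hypoxia response, by 0.21 (SE 0.09), and Adm, adrenomedullin, by 0.20 (SE 0.10).

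Cell cycle genes mark dividing progenitors of fetal brain. In a bulk sample more cells of a type and more RNA per cell cannot be told apart. Of 32 measured, 28 had the higher mean at 0.75, 5 were at unadjusted p under 0.05 with the higher mean and 0 with the lower, beside 56.1% higher and 6.58% at unadjusted p under 0.05 with the higher mean among genes above the dim level. The median was 0.079, and 0.047 with the lower quartile of each array as a covariate. Cdk1, the mitotic kinase, had 9.0, 8.99, 8.98, 8.94 and 8.98 at 0.75, against 8.76, 8.88, 8.91, 8.64 and 8.80 at dose 0, without overlap and at a difference of 0.18 (SE 0.06, limma adjusted p = 0.447). Bub1, a spindle checkpoint kinase, differed by 0.22 (SE 0.09, adjusted p = 0.478) with overlap, Hmmr, a spindle protein, by 0.20 (SE 0.09), and Tyms, thymidylate synthase, by 0.14 (SE 0.06) without overlap.

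Of 20 astrocyte and radial glia genes, 17 had the higher mean at 0.75, 3 at unadjusted p under 0.05 and 0 in the other direction, beside 56.1% higher and 6.58% at unadjusted p under 0.05 with the higher mean among genes above the dim level. The median was 0.041. Hopx, a marker of radial glia, had 8.26, 8.23, 8.22, 8.36 and 8.19 at 0.75, against 8.04, 8.09, 8.11, 8.03 and 8.13 at dose 0. These did not overlap, and the difference was 0.17 (SE 0.05, limma adjusted p = 0.381). Gjb6, connexin 30, differed by 0.16 (SE 0.06, adjusted p = 0.462), Aldoc, aldolase C, by 0.15 (SE 0.06), and Aqp4, the glial water channel, by 0.10 (SE 0.09).

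Synapse and axon guidance genes more often had the lower mean at 0.75, while the neuronal marker Dcx had means of 12.23 at 0.75 and 12.22 at dose 0. Of 30 synapse genes, 24 had the lower mean at 0.75, 2 at unadjusted p under 0.05 and 0 in the other direction, and none was dim. Above the dim level 56.1% of genes had the higher mean and 2.66% were at unadjusted p under 0.05 with the lower. The median of the synapse genes was -0.032, or -0.060 without 0.75 replicate 1 and -0.017 without 0.75 replicate 4. With the lower quartile of each array as a covariate it was -0.052, and that of the axon guidance genes described below was -0.037. Pclo, the active zone scaffold piccolo, had 10.12, 10.02, 10.03, 9.95 and 10.01 at 0.75, against 10.15, 10.16, 10.10, 10.15 and 10.10 at dose 0, with replicate 1 at 0.75 inside the range at dose 0, and differed by -0.10 (SE 0.05, limma adjusted p = 0.503). Gria1, an AMPA receptor subunit, differed by -0.09 (SE 0.04, adjusted p = 0.537), Shank2, a postsynaptic scaffold, by -0.08 (SE 0.07), and Cplx1, complexin, by 0.08 (SE 0.06). Of 33 axon guidance genes, 22 had the lower mean and 3 of these were at unadjusted p under 0.05, with 0 in the other direction, and a median of -0.017, or 0.002 without 0.75 replicate 4 and 0.012 without dose 0 replicate 2. Plxna4, a semaphorin receptor, lay at 10.76 to 10.88 at 0.75 and 10.88 to 10.98 at dose 0 and differed by -0.11 (SE 0.04, adjusted p = 0.459), Plxnd1, of the same family, by -0.12 (SE 0.06), Robo1 and Robo3, Slit receptors, by -0.09 (SE 0.04) and -0.10 (SE 0.08), the last dim.

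Among 18 cortical neuron transcription factors, none of them dim, 5 had the higher mean at 0.75 and 13 the lower, with a median of -0.029. Above the dim level 56.1% of genes had the higher mean. At unadjusted limma p under 0.05 there was 1 with the higher mean and 0 with the lower, beside 6.58% and 2.66% of genes above the dim level. Eomes, the marker of intermediate progenitors, had 8.55, 8.58, 8.56, 8.60 and 8.64 at 0.75, against 8.30, 8.54, 8.44, 8.31 and 7.99 at dose 0. The doses did not overlap, and the difference was 0.27 (SE 0.09, limma adjusted p = 0.448). The neuronal Rorb, Emx1 and Mef2c differed by -0.11 (SE 0.06), -0.10 (SE 0.07) and -0.10 (SE 0.06).

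Markers of tissues beside the brain had the lower mean at 0.75, and many of them are dim. Of 21 skeletal muscle genes, 19 had the lower mean, 5 at unadjusted p under 0.05 and 0 in the other direction, with a median of -0.087 and 8 dim. Of dim genes 21.3% had the higher mean and 8.59% were at unadjusted p under 0.05 with the lower, against 56.1% and 2.66% above the dim level. Tnnc2, fast troponin C, had 6.71, 6.87, 6.94, 7.03 and 6.84 at 0.75, against 7.33, 6.76, 7.10, 7.08 and 7.34 at dose 0. Dose 0 replicates 1 and 5 were highest, the same arrays that had the highest lower quartile, and the difference was -0.24 (SE 0.10, limma adjusted p = 0.494). Myod1, the muscle master factor, differed by -0.22 (SE 0.10), Mybph by -0.16 (SE 0.10) and Tnnt3 by -0.15 (SE 0.07), both sarcomere genes. With the lower quartile of each array as a covariate the median of the list was -0.020, and without dose 0 replicate 5 it was -0.046.

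Of 16 bone and cartilage genes, 13 had the lower mean and 1 was at unadjusted p under 0.05, the dim Col10a1 of hypertrophic cartilage at -0.34 (SE 0.10, limma adjusted p = 0.381). Their median was -0.090, with 9 of the 16 dim, and it was -0.016 with the lower quartile as a covariate and -0.054 without 0.75 replicate 1. Of all dim genes 21.3% had the higher mean and 8.59% were at unadjusted limma p under 0.05 with the lower. Above the dim level the shares were 56.1% and 2.66%. Beside the same shares, 17 of 19 innate immune and interferon genes had the lower mean, 2 at unadjusted p under 0.05, with 9 dim and a median of -0.110. It was -0.031 with the covariate and -0.064 without dose 0 replicate 5. Gbp3, an interferon-induced GTPase, had 6.37, 6.59, 6.60, 6.48 and 6.37 at 0.75, against 6.62, 6.74, 6.67, 6.73 and 6.87 at dose 0, without overlap, at a difference of -0.24 (SE 0.08, adjusted p = 0.432). Usp18, which removes ISG15, differed by -0.18 (SE 0.09, adjusted p = 0.523), Oas1a, an RNA sensor, by -0.19 (SE 0.11), and Irf7, an interferon regulatory factor, by -0.17 (SE 0.09).

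**Figure D4:**
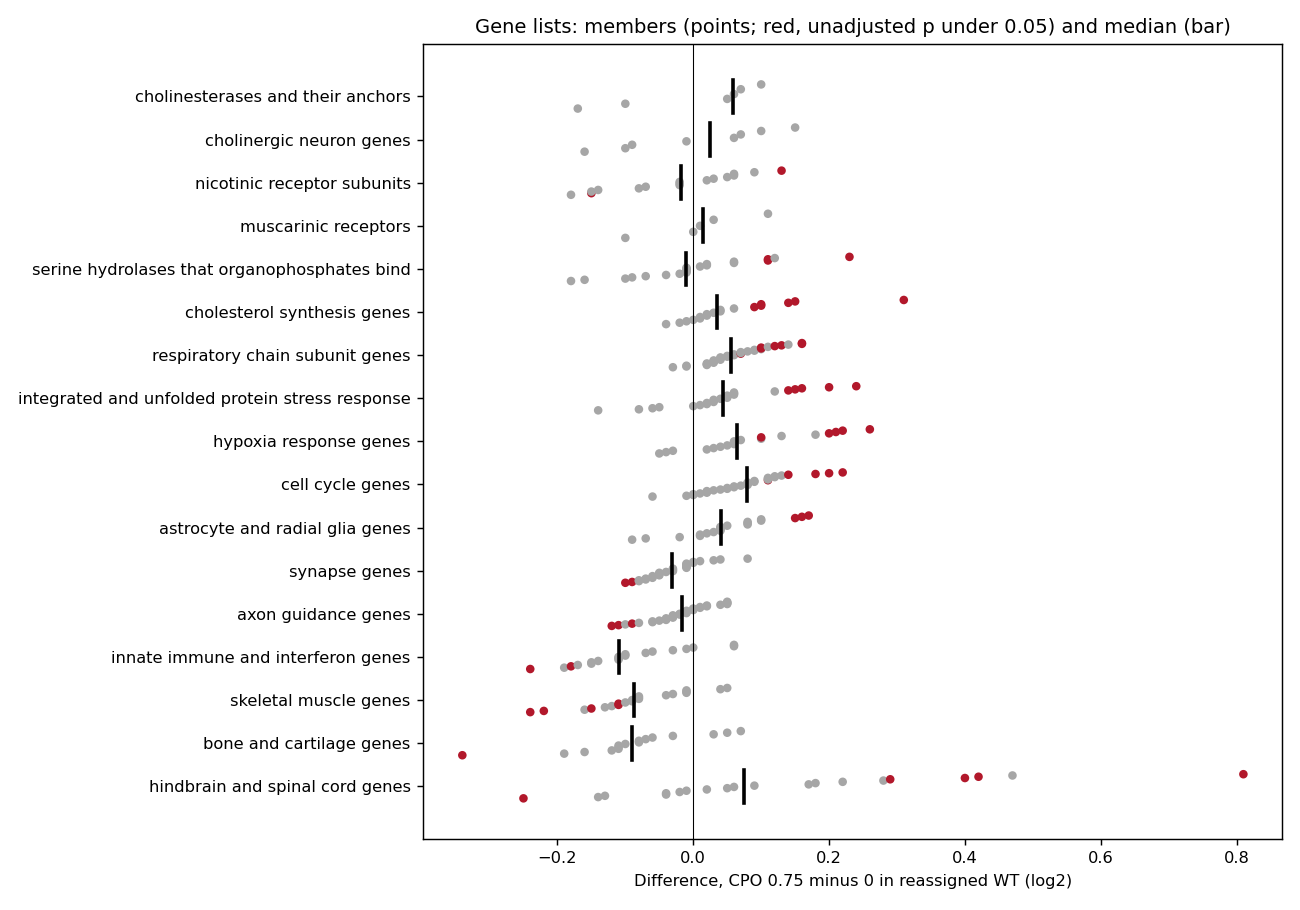
Difference between CPO 0.75 and 0 mg/kg/d in reassigned WT (log2, horizontal axis) for the members of 17 gene lists (rows). Each point is 1 gene, red at unadjusted p under 0.05 and grey otherwise, and the black bar is the median of the list. The bars lie between -0.110 for innate immune genes and 0.079 for cell cycle genes, and no point passed after adjustment.

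Under the deposited labels, which compare other arrays, some list medians were smaller or of the other sign and others were as large or larger. The median was 0.014 for cholesterol synthesis, -0.001 for respiratory chain subunits, 0.005 for cell cycle, 0.025 for hypoxia response, 0.053 for synapse and 0.002 for innate immune genes. It was -0.120 for skeletal muscle, -0.168 for pituitary and -0.087 for bone and cartilage genes.

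Levels of pituitary and hindbrain genes differed between pools of the same dose. Gh, pituitary growth hormone, had 6.42, 9.32, 6.98, 6.85 and 6.71 at 0.75, against 9.03, 8.97, 6.76, 9.51 and 7.02 at dose 0, so 1 array at 0.75 and 3 at dose 0 were high. All 14 measured pituitary genes had the lower mean, 0 of them at unadjusted p under 0.05 by limma, with a median of -0.098. It was -0.026 with the lower quartile as a covariate, -0.065 without 0.75 replicate 1 and -0.161 without dose 0 replicate 2, and 5 of the 14 are dim. Hoxa5, expressed in caudal hindbrain and spinal cord and not in forebrain, had 8.22, 7.73, 7.81, 7.99 and 7.68 at 0.75, against 7.76, 6.88, 8.05, 6.68 and 6.01 at dose 0. Dose 0 replicates 2, 4 and 5 were low, and the difference was 0.81 (SE 0.34, limma adjusted p = 0.495).

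Of 20 hindbrain and spinal cord genes, 10 of them dim, 4 had the higher mean at unadjusted p under 0.05 and 1 the lower. The shares were 6.58% and 2.66% among all genes above the dim level, and 0.556% and 8.59% among dim genes. The median of the list was 0.074. It was 0.017 without dose 0 replicate 4, 0.170 without dose 0 replicate 1, 0.175 with the lower quartile as a covariate and -0.055 under the deposited labels. Slc6a5, the glycine transporter of spinal and brainstem neurons, differed by 0.47 (SE 0.26), Hoxb5 by 0.42 (SE 0.20) and Hoxa2 by 0.40 (SE 0.16). Beside them, 13 of 17 cerebellum genes had the higher mean, 2 of them at unadjusted p under 0.05, beside 56.1% and 6.58% above the dim level. The median was 0.105, or 0.053 without dose 0 replicate 5 and 0.017 under the deposited labels. The 2 were Neurod1, a granule neuron factor, at 0.16 (SE 0.07) and Zic1, a granule precursor factor, at 0.14 (SE 0.06). Zic1 lay at 10.46 to 10.53 at 0.75 and 10.14 to 10.44 at dose 0, without overlap. Tph2 and Slc6a4, of serotonin neurons that lie in the brainstem, differed by 0.21 (SE 0.07) and 0.15 (SE 0.05). They come from 21 dopamine, serotonin and noradrenaline neuron genes, of which 9 had the higher mean and 12 the lower, with a median of -0.016. Of 14 choroid plexus genes, 12 had the higher mean, with Otx2 at 0.18 (SE 0.07). The part of these levels in the differences above was not tested.

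At the higher dose of 0.85 mg/kg/d the same dose 0 arrays serve as control, so no agreement between the doses is read. limma called 1 of 21789 transcript clusters there (0.00459%), Olfr124, and 1490 (6.84%) were at unadjusted p under 0.05. Olfr124 had 5.59 to 5.96 in dose 0 arrays, 5.34 to 5.51 at 0.75 and 4.98 to 5.62 at 0.85, a difference at 0.85 of -0.43 (SE 0.08, adjusted p = 0.0189). It is dim and one of the many similar olfactory receptor genes. For Idi1 the difference was 0.31 (SE 0.07) at 0.75 and 0.15 (SE 0.07) at 0.85.

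In the other reassigned genotypes the same dose gave fewer small p-values. At 0.75 mg/kg/d limma called 0 of 21789 transcript clusters in reassigned KO, Q-tg and R-tg, with 555 (2.55%), 590 (2.71%) and 794 (3.64%) at unadjusted p under 0.05 in that order. The difference of the responses was tested in the same fit. limma called 0 transcript clusters between reassigned WT and KO, with 1171 (5.37%) at unadjusted p under 0.05, and its smallest adjusted p was 0.860. It called 0 between reassigned WT and Q-tg, with 498 (2.29%) and 1.00, and 0 between reassigned WT and R-tg, with 1654 (7.59%) and 0.653.

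The smallest p in the difference from reassigned KO belonged to Psmd6, with a response of 0.19 in reassigned WT and -0.08 in reassigned KO, a difference of 0.27 (SE 0.06, limma adjusted p = 0.860). Kpna2 had 0.25 in reassigned WT and -0.10 in reassigned KO. The immediate early response gene Ier3 had 0.20 and -0.15, Nudt10, a nudix hydrolase, had 0.20 and -0.15, and the dim natural killer receptor Klra6 had -0.24 and 0.21, each time with reassigned WT named first. Against reassigned R-tg they were Fam131c, with -0.12 in reassigned WT and 0.12 in reassigned R-tg, and the dim Olfr124, Hmcn1, Zpbp and Prl5a1. Against reassigned Q-tg they were the dim Olfr1038-ps and Akr1c18, and Zc3h6, Fam131c and Cldn11, a tight junction protein of myelin, with 0.13 in reassigned WT and -0.15 in reassigned Q-tg. Idi1 differed by 0.31 in reassigned WT, 0.04 in KO, 0.11 in Q-tg and -0.01 in R-tg.

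The 1621 transcript clusters with several gene symbols were left out of the tests above, since they cannot be given to 1 gene. When all 28858 transcript clusters were tested, 17 passed. Of these, 13 with the lower mean at 0.75 carry 6 or 7 symbols of genes on chromosome 4, hold only 9 distinct sets of values, and differed by -0.74 to -0.47. Cluster 10504121 had 9.23, 10.12, 9.12, 9.09 and 9.53 at 0.75, against 10.32, 10.31, 10.01, 10.26 and 9.75 at dose 0. The 45 arrays of the other genotypes lay at 9.05 to 9.50, so the level was high in all 5 dose 0 arrays of reassigned WT, in replicate 2 and less so replicate 5 at 0.75, and in some at 0.85, where it ran between 9.14 and 10.30. Also passing were cluster 10445006, with 2 symbols on different chromosomes, at 0.23, and Serpinb13, Idi1 and Olfr124 with adjusted p of 0.0377, 0.0437 and 0.0444 by limma. Adjustment over a set that holds the 13 clusters gave those 3 genes the smaller adjusted p in that setting, and over the 21789 it was 0.177 for each.

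**Figure D5:**
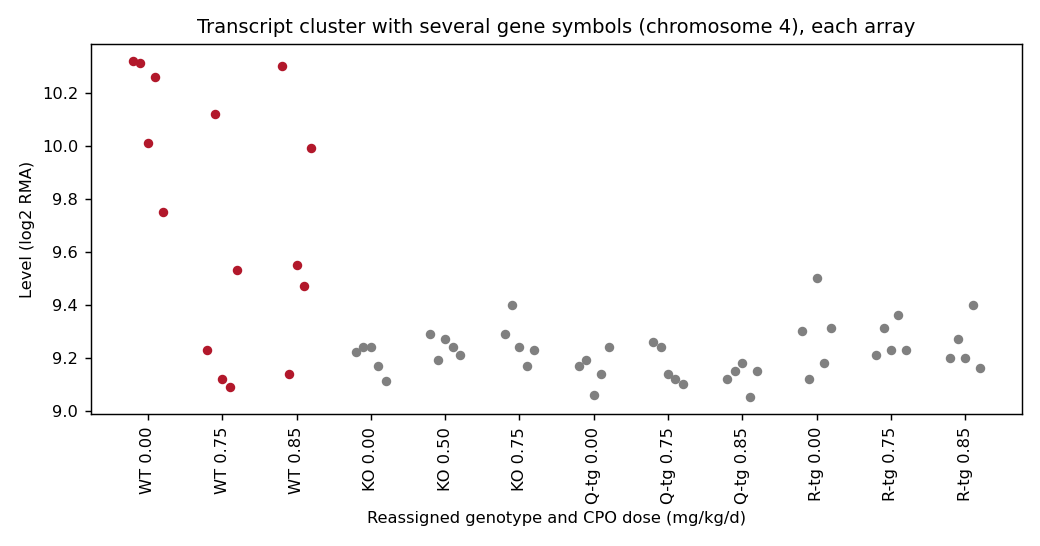
Level (log2 RMA, vertical axis, which does not start at 0) of cluster 10504121, annotated with several genes of chromosome 4, in each array by reassigned genotype and CPO dose in mg/kg/d (horizontal axis). Red points are reassigned WT and grey points the other genotypes. Grey points lie at 9.05 to 9.50, and all 5 reassigned WT arrays at dose 0 lie at 9.75 or above.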

How the data were processed

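RNA of fetal brains, pooled per dam, was measured on 60 Affymetrix Mouse Gene 1.0 ST arrays. The authors deposited log2 values made with RMA in the oligo package under R 2.15.1, per the submitters' processing notes and the file headers (oligo 1.22.0); they were used unchanged. Of 28858 transcript clusters, 21789 have exactly 1 gene symbol in the platform annotation and were tested, naming 19938 genes. Groups came from the inferred order described above, computed from the deposited labels.

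limma 3.58.1 in R 4.3.3 fitted 1 model with 12 groups to the 60 arrays (lmFit, eBayes), with two-sided tests and Benjamini-Hochberg adjustment over the 21789 transcript clusters at 0.05. Differences are at 0.75 minus at 0 mg/kg/d, and SE is the model's standard error. The script was tested on simulated data. The members, the 46 gene lists (956 entries, 860 measured) and the rules were chosen with earlier results of these data known. Lists are given by counts and medians, with no test. Named were Pon1, Pon2, Pon3, Ache, Bche, the 20 transcript clusters of smallest p (small RNA and predicted genes giving way), the 5 of smallest p in each difference between genotypes, and the 4 largest differences of each described list; other members named were chosen after their values were seen.

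The number of arrays limits the precision. Alternatives were the deposited labels, only the arrays of a contrast, another variance prior, array weights, dim transcript clusters left out, all transcript clusters, centring, the replicate number as a block, Xist and Eif2s3y or the lower quartile as covariates, and each array left out in turn.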

Additional observations from a re-analysis of the deposited data

Results flagged for a closer look

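In 50 groups of 5 arrays examined for the named transcript clusters, 1 held an array far from the others by Dixon's test at the 95% level. Chance gives about 1 in 20 such groups. It was Ache in reassigned WT at dose 0, where replicate 5 had 8.76 and the other 4 arrays lay between 8.89 and 8.94.

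The transcript clusters with several gene symbols were outside the main comparison and held signal there. The 13 clusters of chromosome 4 had a median difference of -0.61 between 0.75 and 0 mg/kg/d in reassigned WT, and cluster 10445006 differed by 0.23. Levels of cluster 10504121 above 9.50 occurred in reassigned WT arrays at all 3 doses and in 0 of the 45 arrays of the other genotypes, where they lay at 9.05 to 9.50.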

How the results depend on the processing

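The comparison of 0.75 with 0 mg/kg/d in reassigned WT gave 0 calls by limma under each alternative except all transcript clusters, which gave 17, and with each array left out in turn it gave 0 to 0 calls, with 1083 to 3459 at unadjusted p under 0.05. Between the responses of reassigned WT and KO array weights gave 2 calls, and between those of WT and R-tg the deposited labels gave 1, with 0 under the other alternatives and between WT and Q-tg under all. Under the deposited labels the differences of Spcs2 (-0.026), Zc3h6 (0.055) and H4c6 (-0.10) had the opposite sign, since other arrays are compared. Replicate numbers of the inferred order did not pair the samples: deviations of same-numbered arrays correlated between -0.46 and 0.11, and only 1 of 5 matched best with its own number, and with the replicate block 0 transcript clusters were called, with 1999 at unadjusted p under 0.05. Between reassigned KO and WT 2954 transcript clusters were called, 4519 with array weights and 1 under the deposited labels; between Q-tg and WT 100, against 861 with array weights, 169 without dim ones, 211 with all, 314 with centring and 0 as deposited; between R-tg and WT 70, against 173, 139, 192, 21 and 0; between KO and Q-tg 1650, against 4151 with array weights and 0 as deposited; between KO and R-tg 1328, against 2960 and 0; between R-tg and Q-tg 1335, against 3290, 2134 with all and 0 as deposited. The cause of these shifts was not tested. Of 552 list medians under settings added after the data were seen, 533 moved by less than 1 SD of the list's mean level between replicates. Most of these settings leave out 1 array, and a change of sign can count as such a move. Hindbrain and spinal cord genes had 0.074 and, under the deposited labels, -0.055. Oligodendrocyte lineage genes had -0.023 and, with the lower quartile as a covariate, 0.029. The count is therefore no measure of how stable a median is.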

Other observations

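Outside the groups described above, 12 of 17 measured microglia genes had the higher mean at 0.75 mg/kg/d, with a median of 0.045. At unadjusted limma p under 0.05 there were 0 with the higher mean and 2 with the lower, Itgam and Siglech. The shares were 4.84% and 4.37% over all genes, and 0.556% and 8.59% among dim genes. Siglech had 6.62, 6.59, 6.70, 6.70 and 6.59 at 0.75, against 6.96, 6.72, 6.76, 6.72 and 6.87 at dose 0, without overlap, at a difference of -0.16 (SE 0.07, limma adjusted p = 0.499). Itgam, which encodes CD11b, was dim and differed by -0.17 (SE 0.07, adjusted p = 0.467). Of 28 Wnt, Notch and hedgehog genes, Hey2, a Notch target, had 7.65, 7.55, 7.54, 7.46 and 7.53 at 0.75, against 7.23, 7.33, 7.31, 7.25 and 7.05 at dose 0, without overlap, and differed by 0.31 (SE 0.08, adjusted p = 0.381). Ccnt1, cyclin T1 of the elongation factor P-TEFb, differed by 0.20 (SE 0.06, adjusted p = 0.381), and Hexim1, its inhibitor, by 0.15 (SE 0.05, adjusted p = 0.459), while 10 of the 14 super elongation complex genes had the lower mean. All of these were picked after their values were seen, and none passed.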
